A study of Rattus norvegicus with 16 samples.

Results

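Ferroptosis is a form of cell death driven by iron-dependent peroxidation of membrane lipids, and 10 of its regulators were followed in rat kidney cortex: Slc7a11, Slc3a2, Cbs, Gpx4, Aifm2, Acsl3, Acsl4, Lpcat3, Nox4 and Ptgs2. They were chosen by name, as every array probe whose deposited gene name equals 1 of these symbols, which gave 17 of 45598 probes. Of the 10 genes, 9 passed the filter on dim probes and are among the 16058 genes tested. Slc7a11 did not pass.

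Total RNA of kidney cortex from male Jcl:SD (Sprague-Dawley) rats was hybridised to 16 single-colour Agilent arrays, 8 from wild-type rats and 8 from BRCA1+/- rats, which carry 1 altered copy of the DNA repair gene Brca1. Fe-NTA (ferric nitrilotriacetate), an iron chelate known to injure the proximal tubule through oxidants, was injected into the peritoneum from 4 weeks of age, 5 times a week. Doses began at 5 mg iron/kg for 2 injections, went up to 7 mg iron/kg for 3 more, and the rats treated for 3 weeks later received 10 mg iron/kg in the remaining weeks. Tissue was collected 48 h after each rat's final dose. Each genotype has 2 arrays of untreated cortex, 3 after 1 week and 3 after 3 weeks, out of 17 wild-type and 18 BRCA1+/- rats that began the protocol. The labels give no age or vehicle for the untreated rats, and the groups treated for 3 weeks were older and received higher doses, so that time, age and dose cannot be told apart. The labels also give neither the nature of the BRCA1 allele nor whether the arrays of a group are separate rats. The p-values therefore measure only the spread between these arrays, which may in part be technical.

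The cell defends itself at several points. System xc-, a dimer of the transporter xCT (Slc7a11) and the heavy chain CD98 (Slc3a2), takes up cystine for glutathione synthesis, and cystathionine beta-synthase (Cbs) makes the cysteine precursor cystathionine from homocysteine. Glutathione peroxidase 4 (Gpx4) uses glutathione to reduce phospholipid hydroperoxides, and ferroptosis suppressor protein 1 (Aifm2) regenerates reduced coenzyme Q as a radical trap. Acsl3 activates monounsaturated fatty acids, which dilute the oxidisable ones. On the promoting side, Acsl4 activates arachidonic and related polyunsaturated fatty acids, Lpcat3 places them in phospholipids, and the NADPH oxidase Nox4, abundant in the proximal tubule, makes hydrogen peroxide. Ptgs2 (cyclooxygenase 2) is widely used as a transcript marker of ferroptosis, and in cortex it is made mainly by macula densa and thick limb cells.

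Values are scaled log2 signals: log2 of the processed spot signal minus the 75th percentile of the same array. A level can be compared between arrays for 1 probe, but not between probes. A gene was called when its adjusted p (limma with Benjamini-Hochberg adjustment over all 16058 genes) was under 0.05. Array brightness varied, with 32.8% to 60.5% of probes well above background. The wild-type controls were among the dimmest, at 32.8% and 36.3%, against 48.3% and 40.9% in the BRCA1+/- controls. Their lowest signals well above background were -1.40 and -1.87, against -3.32 and -2.35. A gene could thus be dark in wild-type controls at a level read above background in BRCA1+/- controls. The 1 array that stood apart was replicate 3 of the wild-type 1-week group, which correlated with the other arrays of its group at Pearson r 0.905 and 0.908 across genes, against 0.964 to 0.981 for all other pairs within a group. The wild-type 1-week results of the 9 genes, the pathway genes and the marker lists are also given without it. Brca1 was well above background on neither wild-type control array and on 1 of the 2 BRCA1+/- control arrays (-0.04, with -3.44 on the other). As the labels do not say which part of the gene is altered, this probe does not check the genotype.

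The probes themselves matter for how far the results go. The 4 shown here, 5′ to 3′, each hold 1 open reading frame, and they tell how far Slc7a11, Ptgs2, Gpx4 and Nox4 can be read. Coordinates are those of the array design on the rat build rn4. The open frames of the Slc7a11 and Ptgs2 probes end on a stop codon, in capitals, and both probes were dark on nearly all arrays.
Slc7a11 (chr2:139248397-139248456, minus strand; well above background on 0 of 16 arrays): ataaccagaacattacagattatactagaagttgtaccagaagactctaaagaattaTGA
Ptgs2 (chr13:64432919-64432978, plus strand; well above background on 1 of 16 arrays): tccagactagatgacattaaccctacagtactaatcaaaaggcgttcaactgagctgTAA
Gpx4 (chr7:11163817-11163876, minus strand; well above background on 16 of 16 arrays): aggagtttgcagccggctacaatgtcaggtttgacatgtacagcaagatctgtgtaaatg
Nox4 (chr1:143584026-143586154, plus strand; well above background on 13 of 16 arrays): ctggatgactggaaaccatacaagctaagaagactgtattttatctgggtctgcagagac
The Nox4 probe of 60 bases spans 2129 bases of the genome, so it crosses an exon junction. Gpx4 and Nox4 each have a second, brighter probe, 1295 and 20639 bases away, which gives the values used for the gene. The Ptgs2 values come from a probe that starts 2283 bases downstream of the one shown and holds no open reading frame.

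In wild-type cortex, 1 week of Fe-NTA was followed by falls: 4 of the 9 genes tested fell and 0 rose. They were Nox4, Cbs, Gpx4 and Slc3a2, so 3 of the 5 tested protective genes and 1 of the 4 promoting or marker genes. Over all genes, 14.3% were called lower and 12.8% higher in this comparison. The median difference was -1.04 for the protective genes and -0.15 for the others, against -0.02 over all genes tested. After 3 weeks, Cbs and Nox4 were called lower and 0 were called higher, where 5.55% of all genes were called lower and 8.75% higher. In BRCA1+/- cortex Cbs, Nox4 and Ptgs2 fell after 1 week (3.2% of all genes lower, 4.27% higher), and Cbs and Ptgs2 fell after 3 weeks (6.52% lower, 9.37% higher). In these 4 comparisons 0 of the 9 genes were called higher by limma. At an unadjusted p under 0.05 the only gene higher was Acsl4, after 3 weeks in BRCA1+/- cortex. Other settings called Lpcat3 higher in 1 of these comparisons and Aifm2 in 2. The protective and other medians were -0.56 and -0.52 (wild-type, 3 weeks), -0.62 and -0.69 (BRCA1+/-, 1 week), and -0.26 and -1.0 (BRCA1+/-, 3 weeks). The 2 treated groups of a genotype are set against the same 2 control arrays, so their values are not independent of each other.

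**Figure D1:**
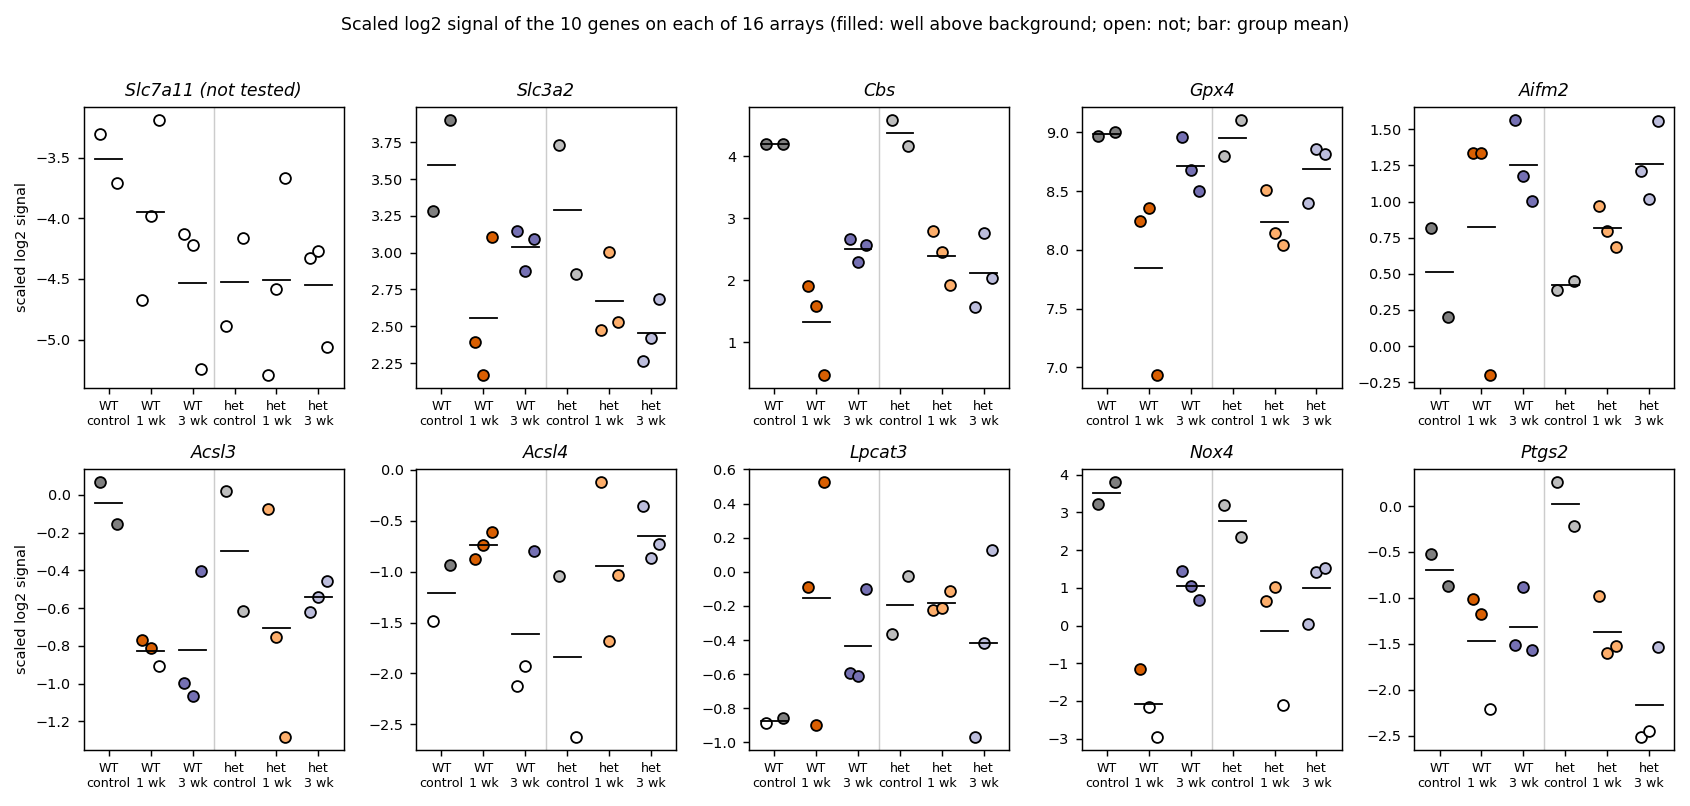
Scaled log2 signal (y axis) of the 10 genes on each of the 16 arrays, by group on the x axis (WT, wild-type; het, BRCA1+/-; wk, weeks of Fe-NTA). Filled points are arrays on which the probe was well above background, open points are not, and bars are group means; all 16 Slc7a11 points are open, and the Cbs controls, at 4.17 to 4.6, lie above all treated arrays, at 0.48 to 2.80.

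Of system xc-, only the heavy chain could be read, so cystine import itself was not followed. Both Slc7a11 probes were well above background on 0 of 16 arrays, with scaled signals of -5.29 to -3.18 for the probe shown, so whether xCT changed was not detectable here. Slc3a2 was at 3.28 and 3.9 in wild-type controls, at 2.39, 2.17 and 3.11 after 1 week and at 3.14, 2.88 and 3.10 after 3 weeks. Each treated wild-type array thus lay below both controls. The 1-week difference was -1.04 ± 0.34 (SE, limma; 2.05-fold lower, adjusted p = 0.033), and the 3-week difference, -0.56 ± 0.34, was not called (adjusted p = 0.30). The 1-week call was lost without 1-week replicate 1 or 2 or control replicate 2 (adjusted p = 0.079, 0.097 and 0.29). It was -1.31 without 1-week replicate 3 (0.0065), and within slides the difference was -1.16 and -1.11, neither called. It was also not called with normexp (-0.55, adjusted p = 0.32), quantile normalization (-0.82, 0.13), no filter on dim probes (0.13) or only the groups compared (0.19). The BRCA1+/- arrays had Slc3a2 at 3.73 and 2.85 untreated, at 2.48, 3.01 and 2.53 after 1 week, and at 2.27, 2.42 and 2.68 after 3 weeks. The controls and the 1-week arrays overlapped, and neither difference was called (-0.62 ± 0.34 with adjusted p = 0.30, and -0.84 ± 0.34 with adjusted p = 0.10).

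Cbs was the only one of the 9 genes called in all 4 comparisons with controls. It stood at 4.19 and 4.20 in wild-type and at 4.6 and 4.17 in the BRCA1+/- controls. After 1 week it was 1.92, 1.59 and 0.48 in wild-type and 2.80, 2.46 and 1.93 in BRCA1+/- cortex. After 3 weeks it was 2.67, 2.30 and 2.57 in wild-type and 1.56, 2.76 and 2.03 in BRCA1+/- cortex. No treated array reached a control array of either genotype. In wild-type cortex the change was -2.87 ± 0.42 after 1 week (7.3-fold lower, adjusted p = 0.00017) and -1.68 ± 0.42 after 3 weeks (3.21-fold lower, adjusted p = 0.015). The corresponding BRCA1+/- changes were -1.99 ± 0.42 (3.96-fold, adjusted p = 0.010) and -2.27 ± 0.42 (4.81-fold, adjusted p = 0.0026). Within slides the wild-type differences were -3.0 and -2.61 after 1 week, only the first called. They were -1.71 and -1.63 after 3 weeks, neither called. The 3-week call is also lost without the filter on dim probes. The wild-type 3-week call is lost when either control array is left out (adjusted p = 0.081 and 0.10) or 3-week replicate 2 is (0.054), and with normexp background correction (-0.91, adjusted p = 0.15). The wild-type 1-week fall was -1.76 with normexp (adjusted p = 0.0084) and -2.44 without replicate 3 (0.00034). The BRCA1+/- 1-week call is lost without control replicate 1 (adjusted p = 0.11). The BRCA1+/- within-slide differences were -1.79 and -1.98 after 1 week and -2.57 and -2.01 after 3 weeks, none called. The second Cbs probe was well above background on 0 of 16 arrays and is not informative.

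Proximal tubule markers fell alongside. Of the 14 genes on that list (such as Slc34a1, Lrp2 and Miox), 14 were tested, 0 were dark on all arrays, and 13 were called lower in wild-type cortex after 1 week. After 3 weeks 5 were called lower and 1 higher in wild-type cortex, and 5 were called lower at each time in BRCA1+/- cortex. Over all genes, 14.3% were called lower in wild-type cortex after 1 week, and 5.55% lower and 8.75% higher after 3 weeks. In BRCA1+/- cortex 3.2% and 6.52% of all genes were called lower after 1 and 3 weeks. The summed scaled signal of the 14 markers was 4660 to 4950 in wild-type controls, 197 to 463 after 1 week and 987 to 2220 after 3 weeks. The BRCA1+/- sums were 3820 to 4470, 699 to 1320 and 651 to 1880 in the same order. Of the 10 macrophage markers tested, 8 were called higher in wild-type cortex after 1 week, where their sum was 98.1 to 200 against 32.7 to 49.5 in controls. In this comparison 12.8% of all genes were called higher. Without the array that stood apart, 13 of the 14 proximal tubule markers were called lower and 6 of the 10 macrophage markers higher. Of all genes, 15.2% were then called lower and 18.2% higher. Fewer cells of a type and less RNA per cell cannot be told apart in whole cortex, and the part of these cell changes in the falls of Cbs, Nox4, Gpx4 and Slc3a2 was not tested.

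**Figure D2:**
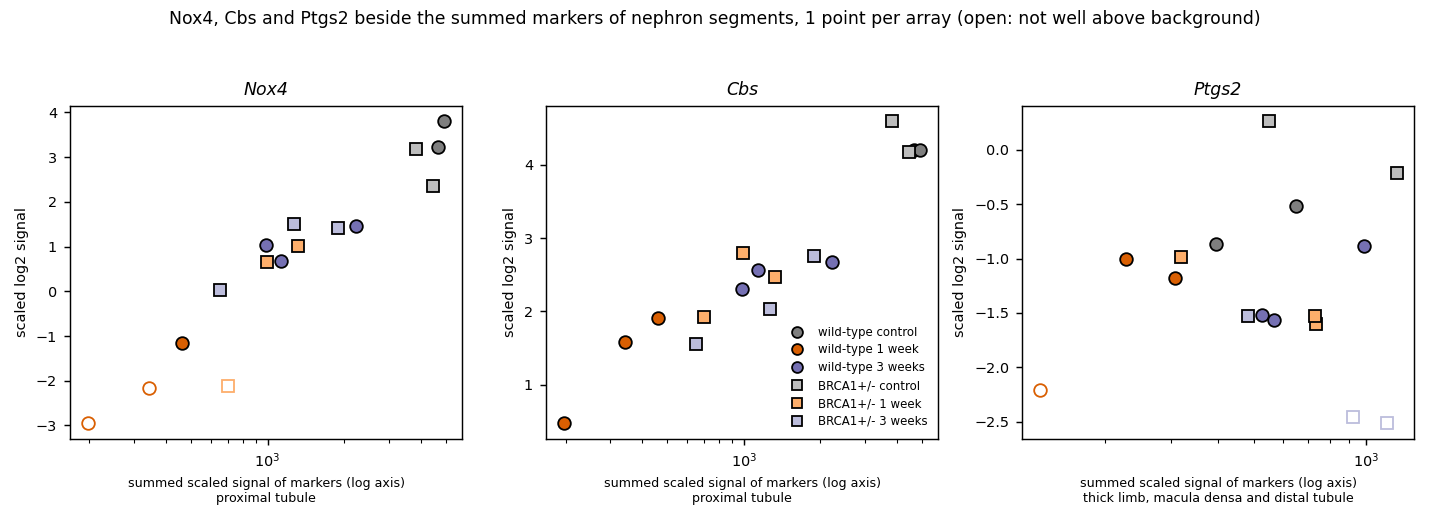
Scaled log2 signal of Nox4, Cbs and Ptgs2 (y axes) against the summed scaled signal of the markers of the nephron segment named under each x axis (log axis), 1 point per array; circles are wild-type, squares BRCA1+/-, and open points were not well above background. For Nox4 and Cbs the controls sit at the upper right, at marker sums of 3820 to 4950, and the wild-type 1-week arrays at the lower left, at 197 to 463.

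Of the genes of lipid peroxide repair, Gpx4 fell in wild-type cortex after 1 week. It was at 8.97 and 9.0 in wild-type controls and at 8.24, 8.35 and 6.94 after 1 week, the lowest being replicate 3, the array that stood apart. After 3 weeks it was at 8.96, 8.68 and 8.50, close to the controls but still below both. The 1-week difference was -1.14 ± 0.36 (2.2-fold lower, adjusted p = 0.029). Without replicate 3 it was -0.69 ± 0.24 (adjusted p = 0.043). The probe shown above gave -1.29 ± 0.31 (adjusted p = 0.0063), from 4.81 and 4.66 in controls to 3.70, 3.52 and 3.13 after 1 week, so both probes read a fall. BRCA1+/- arrays read Gpx4 at 8.80 and 9.11 untreated, at 8.51, 8.15 and 8.04 after 1 week and at 8.40, 8.86 and 8.81 after 3 weeks. The 1-week arrays lay below both controls, but the difference of -0.72 ± 0.36 was not called (adjusted p = 0.25). The wild-type call is lost when either control array is left out (adjusted p = 0.12 and 0.13), and within slides the difference was -1.41 and -0.62, neither called. It was also not called with normexp (-0.67, adjusted p = 0.43), the replicate block (-0.99, 0.054), no filter on dim probes (0.11) or only the groups compared (0.20).

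Aifm2 had higher means than controls in all 4 treated groups, though none was called. It was at 0.82 and 0.20 in wild-type controls, at 1.34, 1.34 and -0.20 after 1 week and at 1.57, 1.18 and 1.00 after 3 weeks. Among BRCA1+/- arrays it was at 0.39 and 0.45 untreated, at 0.97, 0.80 and 0.69 after 1 week and at 1.21, 1.02 and 1.55 after 3 weeks. All 6 treated BRCA1+/- arrays were above both controls, as were the 3-week wild-type arrays. The differences ran from 0.31 ± 0.40 (wild-type, 1 week) to 0.84 ± 0.40 (BRCA1+/-, 3 weeks, adjusted p = 0.15). Its second, dimmer probe, well above background on 9 of 16 arrays, gave -0.23 ± 0.43 for that last comparison, so the 2 probes differ in sign there. Without wild-type 1-week replicate 3 the wild-type 1-week difference was 0.83 and was called (adjusted p = 0.028). The BRCA1+/- 3-week difference was called when only the groups compared were fitted (adjusted p = 0.044).

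**Figure D3:**
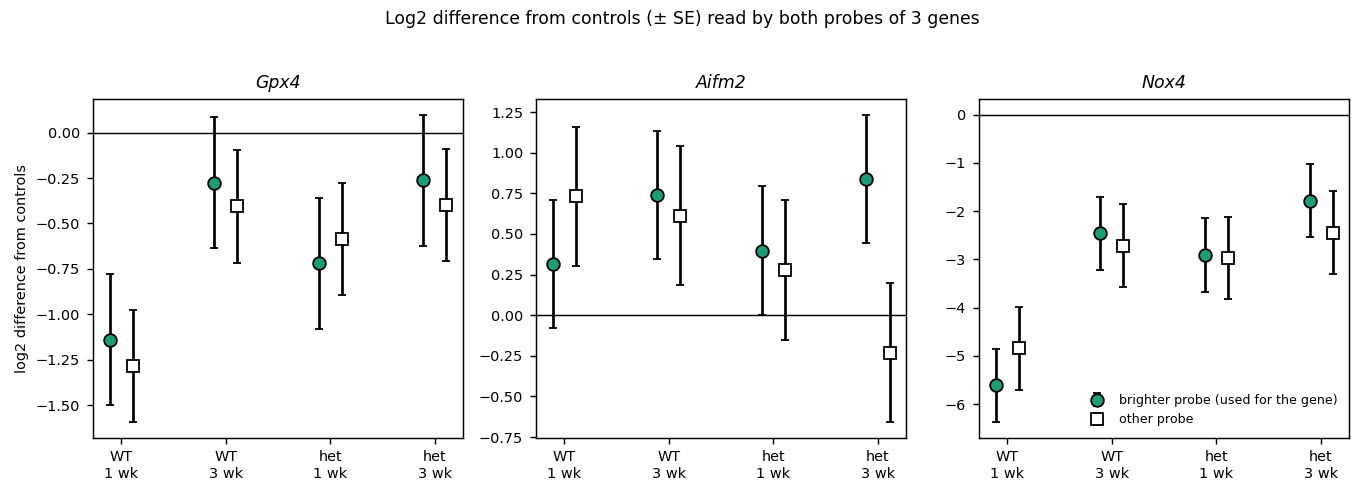
Log2 difference from controls with its SE (y axis) in the 4 comparisons (x axis; WT, wild-type; het, BRCA1+/-; wk, weeks of Fe-NTA) for the brighter probe used for each gene (filled circles) and its other probe (open squares). Both probes of Gpx4 and both of Nox4 are below 0 throughout; the probes of Aifm2 are on opposite sides of 0 after 3 weeks in BRCA1+/- cortex, at 0.84 and -0.23.

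The enzymes that set the supply of oxidisable lipid were not called in any comparison. Acsl3 was at 0.07 and -0.15 in wild-type controls and at -0.77, -0.81 and -0.90 after 1 week, with no overlap, and at -1.0, -1.07 and -0.40 after 3 weeks. Both wild-type differences were close to -0.8 (-0.79 ± 0.33 with adjusted p = 0.091, and -0.78 ± 0.33 with adjusted p = 0.12). Its BRCA1+/- arrays overlapped with their controls (0.02 and -0.62), at -0.08, -0.75 and -1.28 after 1 week and -0.62, -0.54 and -0.46 after 3 weeks.

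Acsl4 was dim, with 12 of 16 arrays well above background, and its controls spread widely. It was at -1.49 and -0.94 in wild-type and -1.04 and -2.62 in BRCA1+/- controls, the lower of each pair not well above background. After 1 week it was at -0.88, -0.74 and -0.61 in wild-type and -0.12, -1.68 and -1.03 in BRCA1+/- cortex. After 3 weeks it was at -2.12, -1.93 and -0.79 in wild-type and -0.35, -0.87 and -0.73 in BRCA1+/- cortex. Only the wild-type 1-week and BRCA1+/- 3-week arrays all lay above their controls, and the 95% interval of the latter difference, 1.18, was 0.11 to 2.26 (adjusted p = 0.12). Lpcat3 was at -0.89 and -0.86 in wild-type controls and at -0.09, -0.90 and 0.53 after 1 week, which overlapped. It stood between -0.97 and 0.53 on all 16 arrays, and its 4 differences from controls ran from -0.23 ± 0.38 to 0.72 ± 0.38. The highest, in wild-type cortex after 1 week, was called only without 1-week replicate 2 (1.09, adjusted p = 0.032).

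Nox4 had the largest change of the 9 genes. It was at 3.22 and 3.81 in wild-type controls and at -1.16, -2.17 and -2.95 after 1 week, of which only the first was well above background. After 3 weeks it was back at 1.45, 1.05 and 0.67, between the 1-week arrays and the controls, with no overlap on either side. The 1-week difference was -5.61 ± 0.76 (48.9-fold lower, adjusted p = 0.00011) and the 3-week difference -2.46 ± 0.76 (5.51-fold lower, adjusted p = 0.044). From 1 to 3 weeks Nox4 rose by 3.15 ± 0.68 (8.88-fold, adjusted p = 0.011). It was the 1 gene of the 9 called for this step, in which 5.55% of all genes were called higher and 2.77% lower. Without the 1-week array that stood apart the 1-week difference was -5.18 (adjusted p = 0.00062), and within slides it was -5.87 (adjusted p = 0.00013) and -5.39 (0.11). The junction probe shown above gave -4.84 ± 0.86 (adjusted p = 0.00079), -2.71 ± 0.86 (0.047) and 2.13 ± 0.77 (0.11) for the same comparisons. The size of the 1-week fall varied with the treatment of dim spots: it was -5.03 with such values set to the detection limit and -2.45 with normexp background correction, and called in both (adjusted p = 4e-05 and 0.0011). The 3-week call is lost when any 1 of the 5 arrays compared is left out (adjusted p = 0.066 to 0.24). That call is also lost with quantile normalization, the replicate block, no filter on dim probes and within slides, so in 10 of 16 alternatives. The rise from 1 to 3 weeks was 1.01 with normexp (adjusted p = 0.10) and 2.72 without the 1-week array that stood apart (0.05).

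The BRCA1+/- arrays read Nox4 at 3.18 and 2.35 untreated, at 0.66, 1.02 and -2.12 after 1 week and at 0.03, 1.41 and 1.51 after 3 weeks. Both treated groups lay below the controls, and the 1-week group spread more than any other, with replicate 3 not well above background. The 1-week difference was -2.91 ± 0.76 (7.51-fold lower, adjusted p = 0.032), and without that replicate -1.92 ± 0.57 (adjusted p = 0.088). The call is also lost when either control array is left out (adjusted p = 0.24 and 0.094), and within slides the difference was -2.52 and -2.90, neither called. With normexp it was -1.66 (adjusted p = 0.027). The replicate block, no filter on dim probes and only the groups compared also lost the call. The 3-week difference of -1.78 ± 0.76 was not called (adjusted p = 0.12), nor was the step from 1 to 3 weeks (1.13 ± 0.68, adjusted p = 0.49), in which 0.187% of all genes were called higher and 0.118% lower.

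The marker Ptgs2 fell in BRCA1+/- cortex at both times and was called higher in none of the comparisons. BRCA1+/- arrays read it at 0.26 and -0.22 untreated, at -0.98, -1.60 and -1.53 after 1 week and at -2.52, -2.45 and -1.53 after 3 weeks. No treated array reached the controls, and only the last of the 3-week arrays was well above background. The differences were -1.40 ± 0.40 (2.63-fold lower, adjusted p = 0.045) and -2.19 ± 0.40 (4.57-fold lower, adjusted p = 0.0024). Within slides the 3-week fall was -1.80 and -2.27, the second called (adjusted p = 0.036). The 1-week call is lost in 12 of 16 alternatives: when any 1 of the 5 arrays is left out (adjusted p = 0.051 to 0.30), with the slide as a block (0.051), within slides (-1.25 and -1.35), with the replicate block (0.085), with quantile normalization (0.063), without the filter on dim probes (0.16) and with the deposited series table (0.051). With normexp the differences were -0.50 and -0.69 (adjusted p = 0.049 and 0.0061).

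Wild-type Ptgs2 was at -0.52 and -0.87 in controls, at -1.01, -1.18 and -2.21 after 1 week and at -1.52, -0.88 and -1.56 after 3 weeks. All treated arrays lay below both controls, but neither difference was called (-0.77 ± 0.40 with adjusted p = 0.17, and -0.63 ± 0.40 with adjusted p = 0.32). Markers of thick limb, macula densa and distal tubule were summed, with 8 of 10 tested and 0 dark on all arrays. These markers cover whole segments and do not single out the cells that usually hold Ptgs2. Their summed BRCA1+/- signal was 548 to 1210 untreated, 318 to 736 after 1 week and 483 to 1140 after 3 weeks. These 3 ranges overlapped. By limma 0 of 8 were called at either time, where 3.2% and 6.52% of all genes were called lower and 4.27% and 9.37% higher. At an unadjusted p under 0.05 the counts were 0 and 1, against 22.9% and 33.5% of all genes. The wild-type sums of these markers were 396 to 647, 133 to 308 and 525 to 987. In wild-type cortex 1 of 8 was called lower after 1 week (0 without the array that stood apart), and 2 were called higher after 3 weeks. Of all genes 14.3% were called lower and 8.75% higher in these respective comparisons. The part of these segments in the Ptgs2 values was not tested. All Ptgs2 values rest on 1 probe with no open reading frame, since the other 2 were well above background on at most 1 array.

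**Figure D4:**
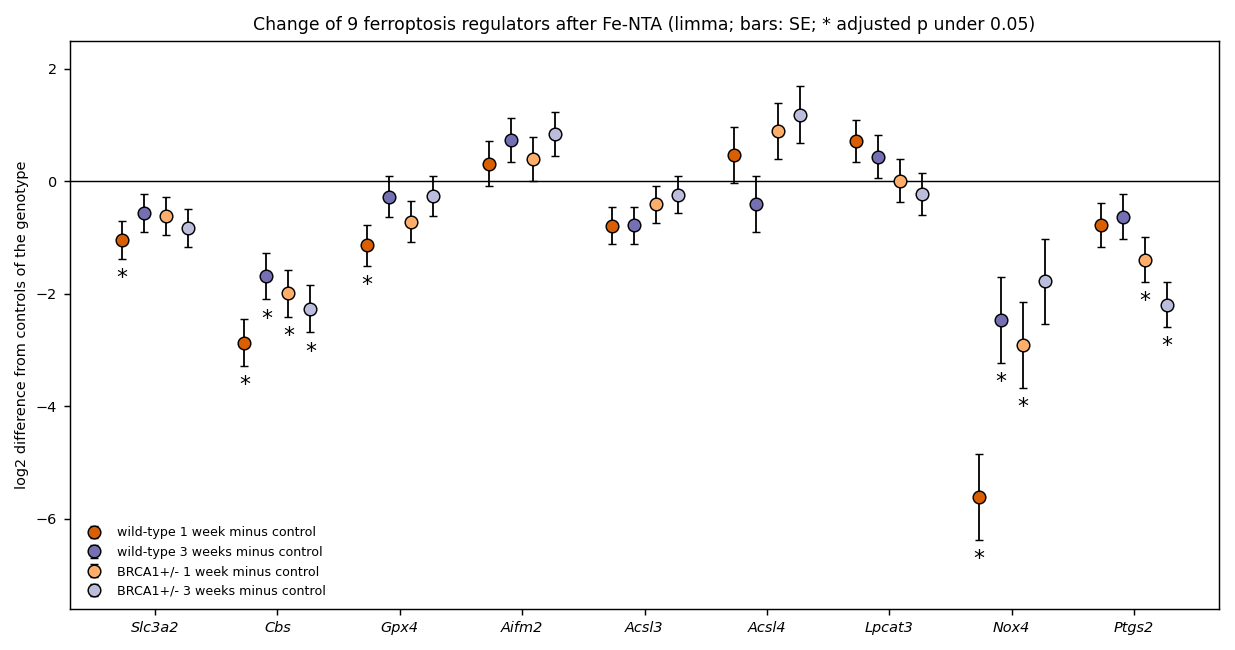
Log2 difference from the untreated controls of the same genotype (y axis) for the 9 genes tested (x axis), with SE bars from limma; asterisks mark an adjusted p under 0.05. Of the 36 values plotted, 11 carry an asterisk and all 11 lie below 0, the lowest being Nox4 in wild-type cortex after 1 week at -5.61.

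Whether the genotypes responded differently was tested directly. None of the 9 genes was called between genotypes in untreated cortex, after 1 week or after 3 weeks, where limma called 0%, 0.56% and 0% of all genes. None was called for the interaction of genotype and treatment at 1 or 3 weeks, where 0% of all genes were called at either time. At an unadjusted p under 0.05 the genotype comparisons gave 0, 2 and 2 of the 9 genes (4.63%, 12.7% and 5.82% of all genes), and the interactions 1 and 2 (7.6% and 4.78%). The largest interaction was that of Nox4 at 1 week, where the BRCA1+/- change was less negative by 2.70 ± 1.08, with a 95% interval of 0.40 to 5.01 (adjusted p = 0.56). At 1 week the BRCA1+/- minus wild-type differences of Nox4 and Cbs were 1.95 ± 0.68 and 1.07 ± 0.37 (both with adjusted p = 0.24). The proximal tubule sums of the same arrays were 699 to 1320 against 197 to 463, and their part in these differences was not tested. Without BRCA1+/- 1-week replicate 3 the Nox4 difference was 2.935 and was called (adjusted p = 0.020). Ptgs2 at 3 weeks had an interaction of -1.56 ± 0.56 (interval -2.76 to -0.36, adjusted p = 0.98), and Acsl4 1.59 ± 0.71 (interval 0.07 to 3.11, adjusted p = 0.98). The Acsl4 value draws on arrays not well above background: wild-type control replicate 1, wild-type 3-week replicates 1 and 2, and BRCA1+/- control replicate 2. For Gpx4 the interactions were 0.42 (interval -0.67 to 1.51) and 0.01 (interval -1.08 to 1.1).

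The other genes of the pathway, 108 in number, were sorted by role, and 89 of them were tested. After 1 week in wild-type cortex 26 were called lower and 8 higher, which is 29.2% and 8.99% of the 89, against 14.3% and 12.8% of all genes. Leaving out the array that stood apart, as chosen after the data were seen, gave 26 lower and 12 higher, against 15.2% and 18.2% of all genes. After 3 weeks 9 were called lower and 7 higher (10.1% and 7.87%, against 5.55% and 8.75% of all genes). For BRCA1+/- cortex the counts were 4 called lower and 6 higher after 1 week (4.49% and 6.74%, against 3.2% and 4.27%), and 8 and 6 after 3 weeks (8.99% and 6.74%, against 6.52% and 9.37%). The BRCA1+/- shares are thus near those of all genes, as is the share called higher in wild-type cortex after 3 weeks (7.87%). The 10 genes named from this list were picked by smallest adjusted p on these same arrays, so keeping a call is not independent support. They kept their wild-type 1-week calls without the array that stood apart. Qdpr was then at -1.75, Coq9 at -1.33, Mat2a at -1.02 and Slc39a8 at -2.67. The median differences of the 89 genes were -0.44, -0.20, -0.22 and -0.19 in the same order, against -0.02, -0.02, -0.03 and 0.01 over all genes. None of the 89 was called between genotypes or for the interactions by limma (1, 18 and 4 genes, and 7 and 2, at an unadjusted p under 0.05).

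Of the genes of cystine uptake and glutathione synthesis, 11 were tested. After 1 week in wild-type cortex 4 fell and 0 rose (36.4% and 0%, against 14.3% and 12.8% of all genes). The median difference was -0.46, and without the array that stood apart the counts were 3 and 1. Glutathione reductase (Gsr), which restores reduced glutathione, fell in all 4 comparisons: from 4.70 and 4.61 in wild-type controls to 3.17, 2.87 and 3.29 after 1 week and 2.98, 3.19 and 3.34 after 3 weeks. Its differences were -1.54 ± 0.23 and -1.48 ± 0.23 in wild-type (adjusted p = 0.00023 and 0.00097) and -0.87 ± 0.23 and -1.35 ± 0.23 in BRCA1+/- cortex (0.034 and 0.0017). Mat2a, which makes S-adenosylmethionine upstream of Cbs, fell in wild-type cortex after 1 week (-1.28 ± 0.29, adjusted p = 0.0044) and was not called in the other comparisons.

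Among the 20 tested genes of lipid peroxide repair and radical trapping, 8 fell and 0 rose in wild-type cortex after 1 week. These are 40% and 0%, against 14.3% and 12.8% of all genes. The median difference was -0.75, and without the array that stood apart the counts were 9 and 1. After 3 weeks 3 were called lower, and in BRCA1+/- cortex 2 and 1, with none higher. Of all genes, 5.55%, 3.2% and 6.52% were called lower in the same order, and 8.75%, 4.27% and 9.37% higher. Qdpr, which regenerates the radical trap tetrahydrobiopterin, fell by 2.13 on the log2 scale after 1 week in wild-type cortex (adjusted p = 0.00045), from 6.55 in both controls to 4.85, 4.76 and 3.66. It fell by 1.15 after 3 weeks (0.040) and, in BRCA1+/- cortex, by 1.56 after 1 week (0.015). Coq9, needed for the synthesis of coenzyme Q, the substrate of Aifm2, fell in wild-type cortex after 1 week (-1.58 ± 0.28, adjusted p = 0.00073) and rose from 1 to 3 weeks (0.87 ± 0.25, adjusted p = 0.044). It was not called in the other 3 comparisons with controls.

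Genes of lipid remodelling and peroxidation moved both ways, as was the case over all genes. Of 22 tested, 2 rose and 6 fell in wild-type cortex after 1 week (9.09% and 27.3%, against 12.8% and 14.3% of all genes). In BRCA1+/- cortex after 3 weeks 3 rose and 2 fell, where 9.37% of all genes were called higher and 6.52% lower. Acsl5, a relative of Acsl3 and Acsl4 that also activates long-chain fatty acids, rose in all 4 comparisons. It went from -0.58 and -0.19 in wild-type controls to 1.96, 1.78 and 2.21 after 1 week (2.37 ± 0.27, adjusted p = 3.1e-05) and 0.96, 1.56 and 1.29 after 3 weeks (1.66 ± 0.27, adjusted p = 0.0013). The BRCA1+/- changes were 1.60 ± 0.27 and 1.42 ± 0.27 (adjusted p = 0.0029 and 0.0035). Cyb5a, cytochrome b5, fell in wild-type cortex at both times (-1.76 ± 0.33 and -1.57 ± 0.33, adjusted p = 0.0011 and 0.0055) and in BRCA1+/- cortex after 3 weeks (-1.67 ± 0.33, adjusted p = 0.0039).

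Of the 18 tested genes of iron supply and storage, 7 fell and 1 rose in wild-type cortex after 1 week. These are 38.9% and 5.56%, against 14.3% and 12.8% of all genes. Slc39a8 (ZIP8), a metal ion importer, fell in all 4 comparisons, with differences of -3.07 and -3.18 in wild-type (adjusted p = 0.00013 and 0.00037) and -2.11 and -2.52 in BRCA1+/- cortex (0.0087 and 0.0016). The cysteine desulfurase Nfs1, which builds iron-sulphur clusters, fell by 1.71 and 1.11 in wild-type cortex (adjusted p = 0.00074 and 0.023) and by 1.34 in BRCA1+/- cortex after 3 weeks (0.0091). Of the 18 tested regulators and stress sensors, more were called higher than lower in each comparison, as over all genes in 3 of the 4. Wild-type counts were 5 and 1 after 1 week, then 3 and 0. BRCA1+/- counts were 4 and 0, then 3 and 0. The wild-type 1-week shares were 27.8% and 5.56%, against 12.8% and 14.3% of all genes. In the other comparisons 8.75%, 4.27% and 9.37% of all genes were called higher, in the same order.

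Atf3, a stress-induced transcription factor known to repress Slc7a11, was not well above background on either wild-type control. With the control mean set to the detection limit, it was at least 6.06-fold higher after 1 week and at least 4.06-fold higher after 3 weeks. The measured differences were 4.34 and 3.76 (limma adjusted p = 6.1e-06 and 7.3e-05). Its BRCA1+/- differences were 2.97 ± 0.40 and 4.15 ± 0.40 (adjusted p = 0.00058 and 1.7e-05). Cd44, of the same role list, was also dark in both wild-type controls and at least 17.7-fold and 9.52-fold higher at the 2 times (limma adjusted p = 1e-05 and 0.00016). Its BRCA1+/- rise was 3.47 ± 0.51 and 4.49 ± 0.51 (adjusted p = 0.001 and 8.4e-05). Cd44 is carried by leukocytes, and 7 and then 9 of the 10 macrophage markers tested were called higher in BRCA1+/- cortex. Of all genes, 4.27% and 9.37% were called higher in the same comparisons. The part of leukocytes in the rise of Cd44 was not tested.

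**Figure D5:**
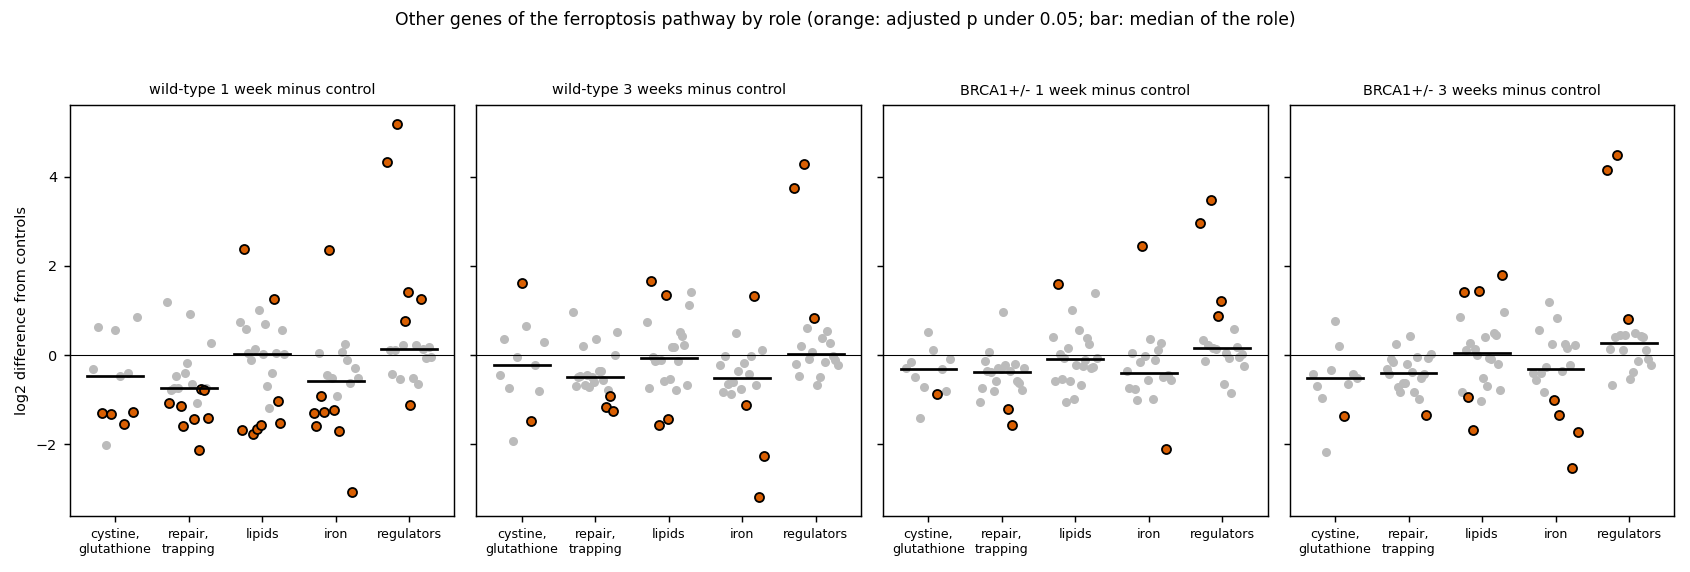
Log2 difference from controls (y axis) of the 89 other pathway genes tested, by role (x axis), in the 4 comparisons; orange points passed an adjusted p of 0.05, grey points did not, and bars are medians. The orange points of repair and trapping are all below 0, and the 2 highest points of each panel are Cd44 and Atf3.

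The genes whose scaled signal followed each of the 9 most closely over the 16 arrays were looked up among 11490 genes with a plain symbol, as a description: the arrays fall into treated and untreated groups, so any gene that changed with treatment scores high. For Nox4 they included Acsm2 and Ralgdsl1 (Pearson r 0.98 and 0.977). For Cbs they were Or8w1b, Mpc1 and Slc22a18 (0.977, 0.969 and 0.963), and for Gpx4 Ndufa7, Cog2 and Lonp2 (0.982, 0.98 and 0.978). Slc3a2 was followed by Baiap2l2 and Sord (0.915 and 0.908), and Aifm2 by Tfe3, Man2a2 and Slc35a4 (0.945, 0.939 and 0.936). Acsl3 had Cdkn2aip, Lap3 and C1galt1c1 (0.889, 0.865 and 0.862), and Ptgs2 had Psat1 and Tspan2 (0.87 and 0.833). The closest genes of Acsl4 (Stard3nl, Tstd2 and Niban3) and of Lpcat3 (Plekha3, Dedd and Hp1bp3) reached only 0.766 to 0.824 and 0.774 to 0.778.

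Promoter sequence was examined for 2 motifs that stress regulators read, the antioxidant response element TGACNNNGC (bound by NRF2) and the amino acid response element TGATGNAA (bound by ATF4), on both strands from 250 bases before to 50 after each RefSeq gene start on GRCr8. All 10 genes were matched, with 13 promoters. The antioxidant motif was in 1 of the 13, at 1 of the 2 starts of Slc3a2, and in 12.1% of all 33469 promoters. The amino acid motif was in 0 of the 13 and in 3.98% of all. The match is shown with 10 bases on each side, read along the gene, with the motif, which lies on the opposite strand, in capitals:
Slc3a2 promoter (chr1:215039697-215039725, minus strand): gcggatcgggGCGGAGTCAtgggtcactt
A match is only a match of letters, and the array does not tell the starts of Slc3a2 apart.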

How the data were processed

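Per the file headers, the scanner files of the authors hold spot intensity values from Agilent Feature Extraction (10.7 in the submitters' processing notes): a background-subtracted processed signal, and mean and background intensity. The deposited series table holds log2 values, which differed from the scaling used here by at most 0.00978 (median difference per array), with no centring per gene. Scale, centring and direction are thus those of the scanner values, with column medians of -2.88 to -2.17. Each array has 62976 spots, 4259 of them controls, which were left out, and 0 saturated.

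Each array's 75th percentile was subtracted from its log2 processed signals, giving 45598 probes. A probe was kept (20452 were) if some group had it well above background on all its arrays, and each gene took its brightest probe. Symbols of 21222 probes came from RefSeq by accession. The test was limma 3.58.1 (R 4.3.3) over all 16 arrays with 1 mean per group (10 residual and 4.87 prior degrees of freedom; two-sided). Values quoted with ± in the text are SE unless stated. The fit was tested on simulated data. Alternatives changed background correction, normalization, filter, probe choice, slide or replicate block and the arrays included. The 2 slides hold 8 arrays each, and every group is on both.

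The genes and lists were chosen with earlier results of these data known. Besides the 10 genes, those named are the 2 per role with the smallest adjusted p over the control comparisons, Brca1, and the 3 most correlated genes of each, of which some are not reported here. Mboat7 and Tmem189, of the pathway list, were not found on the array under those names. The number of arrays limits the precision. Where every probe of a gene was not well above background in a whole group, the change is given as a bound ("at least"). The adjusted p beside a bound is that of the measured difference.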

Additional observations from a re-analysis of the deposited data

How the results depend on the processing

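Of 1701 alternative values for the 9 genes, 1628 kept their side of the threshold, 65 lost the call and 8 gained one. All 65 losses concern the 12 values that were called. Most of the 1701 are alternatives to values not called, so their share that stayed does not measure how stable the calls are. A change of sign was counted only where either fit called the gene, which gave 0. Changes of sign in values called in neither fit were not counted. The number of these genes called in wild-type cortex was 4 after 1 week, 2 after 3 weeks and 1 from 1 to 3 weeks, and in BRCA1+/- cortex 3 after 1 week and 2 after 3 weeks. With normexp background correction the 3 wild-type counts were 2, 1 and 0, and BRCA1+/- cortex gave 3 after 3 weeks. Without the filter on dim probes, 2 and 0 were called in wild-type cortex and 1 in BRCA1+/- cortex after 1 week. Quantile normalization gave 1 after 3 weeks and 2 from 1 to 3 weeks in wild-type cortex. Fitting only the groups compared gave 2 in wild-type cortex after 1 week and 4 in BRCA1+/- cortex after 3 weeks. Within slide 1 the wild-type counts after 1 and 3 weeks were 2 and 0, and both BRCA1+/- counts were 0. Within slide 2 the 3 wild-type counts were 0, and the BRCA1+/- counts 0 and 1. These fits have few arrays, and the cause of the other losses was not tested.

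Leaving out 1 array at a time gave 2 to 5 wild-type genes after 1 week, 0 to 1 after 3 weeks and 0 to 2 for the step between, and 0 to 2 BRCA1+/- genes after 1 week and 2 after 3 weeks. Between genotypes at 1 week it gave 0 to 1, the 1 being Nox4.

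The replicate numbers of the labels did not pair the arrays: deviations of same-numbered arrays correlated at a mean r of -0.007 over 36 pairs (-0.338 to 0.445), those of other numbers at 0.004. With the replicate number as a block, 3 and 1 of the 9 genes were called in wild-type cortex after 1 and 3 weeks, and 1 and 2 in BRCA1+/- cortex; the calls lost were Gpx4 and Nox4 in the former, and Nox4 and Ptgs2 after 1 week in the latter.

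Over all genes, 4350, 2297 and 1336 were called in wild-type cortex (after 1 week, after 3 weeks, between them), 1200, 2552 and 49 in BRCA1+/- cortex, and 90 between genotypes at 1 week. In the same order normexp gave 1708, 837, 672, 436, 1563, 29 and 2, no filter 2661, 974, 472, 450, 1070, 12 and 1, and only the groups compared 1758, 3725, 459, 1084, 3891, 25 and 0. Slide 1 alone gave 1080, 301, 130, 125, 252, 2 and 0, and slide 2 alone 215, 3, 0, 28, 277, 0 and 0. Leaving out 1 array gave as few as 2354, 778, 604, 367, 816, 15 and 1 and as many as 5370, 1572, 1989, 1112, 1988, 83 and 151. The slide block gave 34 between genotypes at 1 week, the replicate block 83 and quantile normalization 20 for the BRCA1+/- step from 1 to 3 weeks. With normexp the calls split into 618 higher and 219 lower (main 1405 and 892) after 3 weeks in wild-type, and 176 and 260 (main 686 and 514) after 1 week in BRCA1+/- cortex.

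Signal over background limits Nox4, Ptgs2 and Acsl4, which were not well above background on 3, 3 and 4 of 16 arrays, and Slc7a11 entirely. The 2 control arrays a genotype limit the precision of every comparison with them.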

Other observations

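Close relatives and partners of the promoting genes were looked at as well. They belong to the lipid list and were singled out after their values were seen. Cyba, the membrane partner that Nox4 needs, fell in wild-type cortex after 1 week (-1.66 ± 0.43, limma adjusted p = 0.0097) and was not called after 3 weeks (-0.59 ± 0.43) or in BRCA1+/- cortex (-0.58 ± 0.43 and 0.0 ± 0.43). Cybb, the catalytic subunit of the phagocyte oxidase, was called higher after 3 weeks in both genotypes: at least 1.96-fold in wild-type cortex, where both controls were dark (adjusted p = 0.039), and by 1.43 ± 0.41 in BRCA1+/- cortex (0.028). In these comparisons 8 and 9 of the 10 macrophage markers tested were called higher, against 8.75% and 9.37% of all genes. The part of macrophages in the rise of Cybb was not tested. Ptgs1 (cyclooxygenase 1) was at least 2.22-fold higher in BRCA1+/- cortex after 3 weeks (adjusted p = 0.012), the comparison in which Ptgs2 fell by 2.19 on the log2 scale. Acsl1 fell in wild-type cortex after 1 week (-1.68 ± 0.34, adjusted p = 0.0022), where Acsl5 rose. Without the wild-type 1-week array that stood apart, Cyba was at -1.23 and Acsl1 at -1.39, both called (adjusted p = 0.024 and 0.0046).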
